A study of Homo sapiens with 12 samples.

Results

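The epithelial-mesenchymal transition (EMT) genes described here are 10 genes of the 63677 that were counted, namely the cadherins CDH1 and CDH2, the transcription factors ZEB1, ZEB2, SNAI1, SNAI2 and TWIST1, and the mesenchymal genes VIM, FN1 and TAGLN. They were taken by name from a fixed list and matched to the Ensembl identifiers of the count tables, a rule that uses no measured value, although earlier results of these data were known when the list was chosen. Polyadenylated RNA was sequenced from HCC38, SUM149PT and MDA-MB-468, which are human breast cancer lines, 24 h after transfection of 50 nM locked nucleic acid (LNA) antisense oligonucleotides, with fresh medium at 6 h. In the knock-down libraries the cells had received LNA1 together with LNA2, which target the long noncoding RNA RP11-19E11.1 (LINC01956, ENSG00000258910), and in the control libraries the non-silencing oligonucleotide LNA NS. There were 2 libraries for each treatment in each line, 12 in all, and no library of untreated cells was analysed here. The knock-down is transient, 1 oligonucleotide pair stands against 1 control, and the lines were grown in different media, so line and medium cannot be told apart.

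In EMT an epithelial cell loosens its junctions and takes on the shape, matrix and motility of a mesenchymal cell. E-cadherin, the product of CDH1, holds neighboring epithelial cells together, and factors of the ZEB, SNAIL and TWIST families bind E-box motifs and lower its transcription, while vimentin, fibronectin and transgelin are made in larger amounts. Carcinoma cell lines often hold a mixture of both programs, and basal-like breast cancer lines are known for it.

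The libraries held between 32187835 and 56191152 counts in genes. In HCC38 the targeted lncRNA had 668 and 737 counts under LNA NS against 81 and 76 after knock-down, in SUM149PT 398 and 344 against 31 and 14, and in MDA-MB-468 29 and 23 against 1 in each library. It fell in all 3 lines (log2 fold changes ± SE of -3.09 ± 0.20, -4.41 ± 0.23 and -4.75 ± 0.55). Levels are given in CPM, counts divided by the normalized library total and scaled to 1000000. The 10 basal epithelial markers summed to 8231 to 9718 CPM under LNA NS in MDA-MB-468 and SUM149PT, and to 817 to 929 CPM in HCC38. With knock-down these sums were lower in MDA-MB-468 (5084 to 5475 CPM) and SUM149PT (7712 to 7877 CPM) and overlapped with the controls in HCC38 (753 to 823 CPM). EGFR, the most abundant of these markers in MDA-MB-468, went there from a mean of 5556 CPM to 2800 CPM. At an adjusted p under 0.1, 4 of the 10 markers rose in MDA-MB-468 (24.9% of all tested genes) and 5 fell (25.7%). The lower sum in that line was thus not shared by all markers. The part of these shifts in the results on the members was not tested. KRT14, a keratin of basal cells, was at 0.48 CPM under LNA NS in HCC38, so this defining marker was nearly absent there. Luminal markers summed to 215 to 554 CPM over the 12 libraries, and TFF3, PGR or TFF1 had 0 counts in some groups. Of the other cell types, fibroblast markers summed to 19.2 to 137 CPM with COL1A1 leading in every group, immune markers to 9.27 to 28.8 CPM and endothelial markers to 3.67 to 54 CPM. DCN and LUM had 0 counts in all MDA-MB-468 libraries, and CD3D and MS4A1 had 0 counts in every library. In bulk RNA, fewer cells of a type and less RNA per cell cannot be told apart.

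Promoters of 5 of the 10 genes were found in the RefSeq promoter table (GRCh38.p14), with 12 start sites in all, and CDH1, SNAI1, SNAI2, TWIST1 and TAGLN had no entry. The 250 bases before the start site are shown for VIM and for 1 of the 7 ZEB1 start sites, because these genes rose together in MDA-MB-468 and SUM149PT and passed no test in HCC38. VIM lies at chr10:17227991-17228240 on the plus strand, and capitals mark its single GGGCGG, the core of a GC box. ZEB1 lies at chr10:31318966-31319215 on the plus strand, and capitals mark CACCTG or its reverse complement CAGGTG, the E-box form that ZEB and SNAIL proteins bind. This start site had the most CACCTG matches of the 7, and its GGGCGG match at -177 was left in lower case.
VIM: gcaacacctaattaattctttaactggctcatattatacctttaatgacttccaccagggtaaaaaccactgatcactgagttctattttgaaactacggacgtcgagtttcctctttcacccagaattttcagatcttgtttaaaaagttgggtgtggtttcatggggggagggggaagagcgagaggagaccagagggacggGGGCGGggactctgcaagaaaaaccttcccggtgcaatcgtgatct
ZEB1: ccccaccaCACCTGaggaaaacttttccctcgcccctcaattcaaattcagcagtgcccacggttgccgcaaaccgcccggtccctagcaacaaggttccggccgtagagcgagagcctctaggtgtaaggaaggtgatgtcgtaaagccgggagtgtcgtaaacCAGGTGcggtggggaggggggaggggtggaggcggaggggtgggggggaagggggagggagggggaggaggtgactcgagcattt

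The ZEB1 window held the E-box form at -242 and -85 from the start site, and a further match lay at 33 bases after it. On either strand, CACCTG was found in 20.6% of the 35116 RefSeq promoters of 300 bases, and GGGCGG in 45%. ZEB1 held 7 of the 12 windows and had CACCTG at 2 of them, whereas VIM, FN1, ZEB2 and CDH2, with fewer windows each, had none. With these unequal numbers of windows the matches do not set ZEB1 apart. GGGCGG was not particular to VIM, since FN1 held 6 matches and windows of ZEB1 and CDH2 held it too. Neither TGACTCA, the AP-1 site (4.95% of promoters), nor the CArG box of serum response factor (1.29%) was found in any of the 12 windows.

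Levels of the 10 genes in the LNA NS libraries were compared first, since these give the state of each line under the control oligonucleotide. MDA-MB-468 stood below both other lines in 9 of the 10 genes, where 33.2% of all 21325 tested genes were lower than in SUM149PT and 37.7% lower than in HCC38. CDH2, ZEB2, SNAI2 and TWIST1 passed the filter on low counts through the other lines, so their difference from MDA-MB-468 was fixed by that filter, and the 9 are a description. Between SUM149PT and HCC38, 6 members were higher in SUM149PT (background 31.6%), 2 were higher in HCC38 (background 38.0%), and CDH2 and TAGLN did not pass the test.

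CDH1 (ENSG00000039068), the gene of E-cadherin, spans chr16:68771195-68869440 on the plus strand of GRCh37. Under LNA NS it was counted at 103 and 118 CPM in MDA-MB-468, at 272 and 332 CPM in HCC38 and at 495 and 410 CPM in SUM149PT. The lines did not overlap, with MDA-MB-468 lowest and SUM149PT highest. CDH1 was lower in MDA-MB-468 than in SUM149PT by a log2 difference of -2.03 ± 0.13 (SE; edgeR quasi-likelihood test, adjusted p = 1.38e-09), and higher in SUM149PT than in HCC38 by 0.59 ± 0.13 (edgeR adjusted p = 0.000773). The epithelial cadherin was thus present in every line, and its level was not lowest in the lines with the highest VIM.

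CDH2 (ENSG00000170558; chr18:25512843-25757910, minus strand) encodes N-cadherin, the cadherin of mesenchymal and neural cells. In MDA-MB-468 it had 4 and 8 counts in the LNA NS libraries, against 29.2 and 25.2 CPM in SUM149PT and 25.6 and 29.1 CPM in HCC38. SUM149PT and HCC38 overlapped, with a log2 difference of -0.01 and a 95% interval from -0.29 to 0.28. The level in MDA-MB-468 was 0.00591 of that in SUM149PT, with a counting interval from 0.00305 to 0.0103. No line had lost CDH1 while holding CDH2.

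Vimentin, the intermediate filament protein of mesenchymal cells, is encoded by VIM (ENSG00000026025; chr10:17270240-17279592, plus strand). The LNA NS libraries held 15 and 13.1 CPM of VIM in MDA-MB-468, 160 and 175 CPM in SUM149PT, and 568 and 464 CPM in HCC38. The order was MDA-MB-468, SUM149PT, HCC38 with no overlap, and each step passed the test. The log2 difference was -3.57 ± 0.12 between MDA-MB-468 and SUM149PT (edgeR adjusted p = 6.23e-13) and -1.62 ± 0.11 between SUM149PT and HCC38 (edgeR adjusted p = 2.93e-09).

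FN1 (ENSG00000115414; chr2:216225163-216300796, minus strand), the gene of the matrix protein fibronectin, followed another order. It stood at 38.1 and 38.8 CPM in MDA-MB-468, 2053 and 1453 CPM in SUM149PT, and 468 and 683 CPM in HCC38. SUM149PT was highest and exceeded HCC38 3.05-fold (edgeR adjusted p = 1.15e-06), whereas VIM was highest in HCC38.

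TAGLN (ENSG00000149591; chr11:117070086-117078180, plus strand) encodes transgelin, an actin-binding protein of smooth muscle and fibroblasts. Its LNA NS levels were 10.9 and 11.2 CPM in MDA-MB-468, 10.9 and 11.9 CPM in SUM149PT, and 9.53 and 10.6 CPM in HCC38. TAGLN was the member whose level did not pass the test between any lines, with log2 differences of -0.04 (95% interval -0.35 to 0.27), 0.14 (-0.17 to 0.45) and 0.18 (-0.13 to 0.49) for MDA-MB-468 over SUM149PT, MDA-MB-468 over HCC38 and SUM149PT over HCC38.

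Among the transcription factors, the zinc finger repressor ZEB1 (ENSG00000148516; chr10:31607424-31818742, plus strand) followed the order of VIM. It had 0.19 and 0.37 CPM in MDA-MB-468, 1.10 and 0.81 CPM in SUM149PT, and 3.04 and 3.54 CPM in HCC38, with no overlap between lines. Its log2 difference was -1.76 ± 0.40 between MDA-MB-468 and SUM149PT (edgeR adjusted p = 0.00122) and -1.77 ± 0.30 between SUM149PT and HCC38 (edgeR adjusted p = 8.59e-05).

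ZEB2 (ENSG00000169554; chr2:145121931-145278624, minus strand), its paralog, was distributed otherwise. No read was counted for ZEB2 in any of the 4 MDA-MB-468 libraries, and the floor of 3 counts over the LNA NS pair corresponds to 0.0405 CPM. SUM149PT held 4.93 and 4.76 CPM and HCC38 0.48 and 0.66 CPM. Set against that floor, ZEB2 was at least 120-fold lower in MDA-MB-468 than in SUM149PT and at least 14.1-fold lower than in HCC38. SUM149PT exceeded HCC38 8.46-fold (edgeR adjusted p = 2.52e-07), so the paralogs were ranked oppositely between these lines.

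SNAI1, SNAI2 and TWIST1 shared 1 order, with MDA-MB-468 lowest and SUM149PT highest. SNAI1 (ENSG00000124216; chr20:48599517-48605423, plus strand), the gene of SNAIL, was at 1.59 and 2.02 CPM in MDA-MB-468, 37.6 and 36.1 CPM in SUM149PT, and 18.5 and 20.6 CPM in HCC38. SNAI2 (ENSG00000019549; chr8:49830157-49834299, minus strand), the gene of SLUG, had 1 count in the LNA NS pair of MDA-MB-468, 50.9 and 52.7 CPM in SUM149PT, and 3.41 and 3.48 CPM in HCC38. The basic helix-loop-helix factor gene TWIST1 (ENSG00000122691; chr7:19060614-19157259, minus strand) had 1 count in each LNA NS library of MDA-MB-468, 22.1 and 23.9 CPM in SUM149PT, and 0.66 and 0.47 CPM in HCC38. None of these groups overlapped.

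The gap between SUM149PT and HCC38 widened from SNAI1 to SNAI2 to TWIST1. SNAI1 was 1.89-fold higher in SUM149PT (edgeR adjusted p = 1.7e-05), SNAI2 15-fold (edgeR adjusted p = 1.37e-11) and TWIST1 40.8-fold (edgeR adjusted p = 4.97e-12). HCC38, which had the most VIM and ZEB1, thus had little TWIST1.

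Per kilobase of the Ensembl canonical transcript, levels of different members can be set side by side. Under LNA NS in MDA-MB-468, CDH1 led with 23 CPM per kb, ahead of VIM with 6.52 and FN1 with 4.58. In SUM149PT, FN1 led with 209 CPM per kb, followed by CDH1 with 94 and VIM with 77.7. In HCC38, VIM led with 240 CPM per kb, above FN1 with 68.6 and CDH1 with 62.7, and with summed exon length FN1 (33.4) stood below CDH1 (49.6). The leading gene of the 10 therefore differed in each line. Among the transcription factors the highest level per kb was that of SNAI1 in MDA-MB-468 and in HCC38, with 1.06 and 11.5 CPM per kb. In SUM149PT SNAI2 stood at 23.8 CPM per kb and SNAI1 at 21.6, and with summed exon length in place of the canonical transcript the order turned, at 15.8 and 21.6 CPM per kb.

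**Figure D1:**
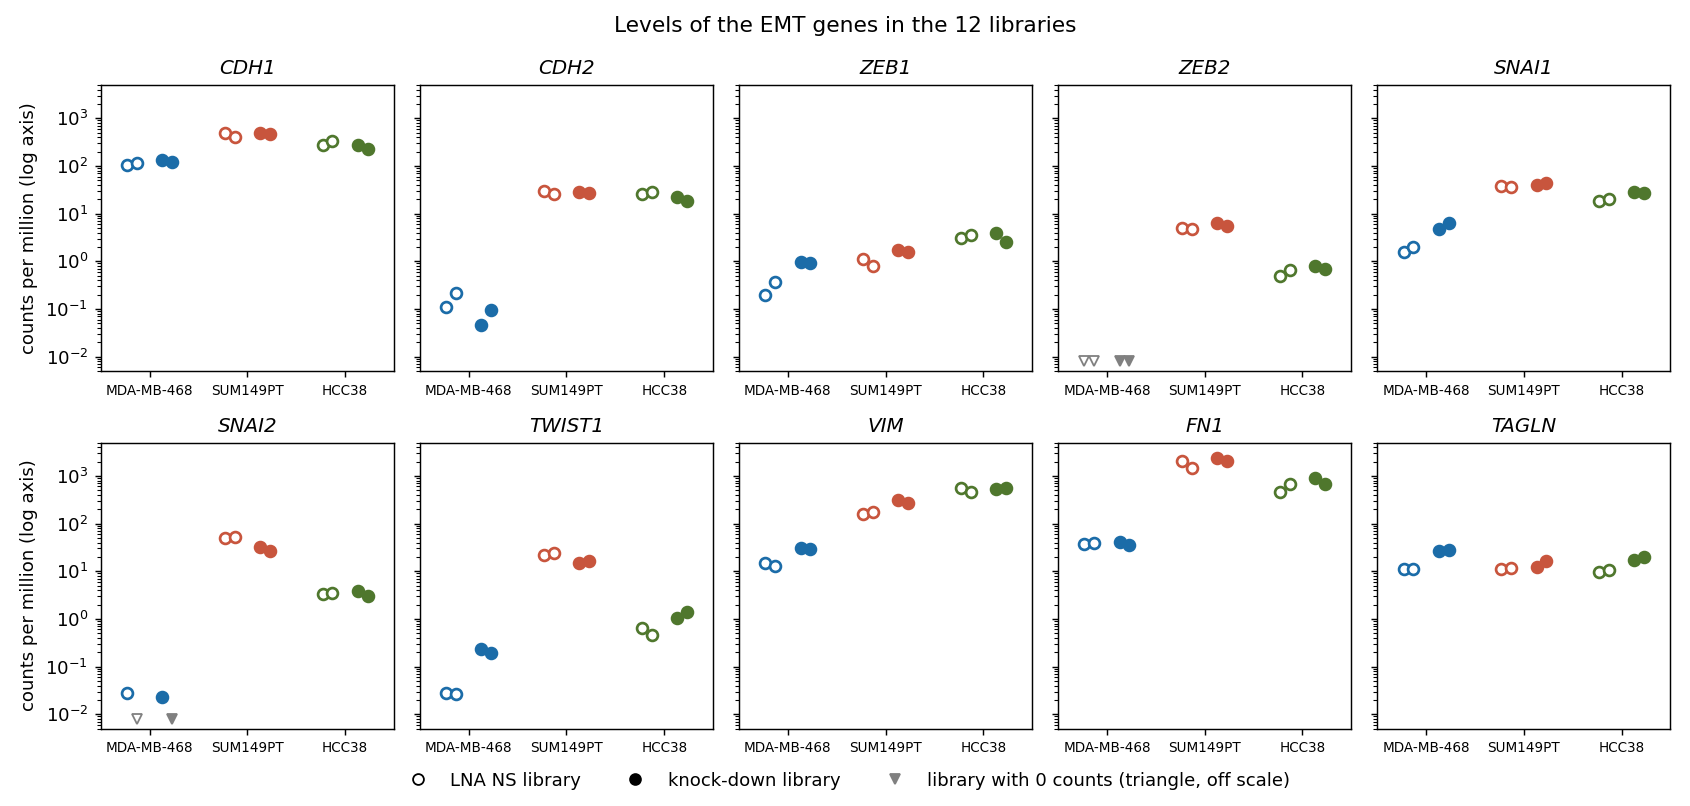
CPM of each gene (vertical log axis) in the 12 libraries, with lines along the horizontal axis, open circles for LNA NS and filled circles for knock-down; triangles at the foot are libraries with 0 counts, drawn off scale. MDA-MB-468 lies lowest in 9 panels, whereas TAGLN stands between 9.53 and 11.9 CPM in all LNA NS libraries.

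The knock-down was then compared with LNA NS in each line. In MDA-MB-468, ZEB1, SNAI1, TWIST1, VIM and TAGLN rose and no member fell, so 5 of 10 passed the test upward where 24.9% of all tested genes rose and 25.7% fell (50.6% in either direction). By edgeR at an unadjusted p under 0.05 and by DESeq2 the number that fell there was also 0. However, the LNA NS pair of that line held 0 counts of ZEB2, 1 of SNAI2 and 2 of TWIST1. A fall in these could hardly have been called, and CDH2, with 12 counts against 6, did not pass. The absence of falls is thus largely set by depth and is no result beside the background. In SUM149PT, VIM and ZEB1 rose (background 20.0%) and SNAI2 and TWIST1 fell (background 18.0%, and 38.0% in either direction). In HCC38, SNAI1, TWIST1, FN1 and TAGLN rose (background 15.5%) and CDH2 fell (background 18.4%, and 34.0% in either direction). Over the 10 genes the log2 fold changes had a median of 0.63 in MDA-MB-468, beside 0.00 over all tested genes, 0.23 in SUM149PT, beside 0.03, and 0.23 in HCC38, beside 0.01.

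At an adjusted p under 0.1 together with more than 2-fold, 5 members passed in MDA-MB-468 (background 20.2%), none in SUM149PT (background 10.6%; 0 also by DESeq2 and at an unadjusted p under 0.05) and TWIST1 in HCC38 (background 9.36%). The number that rose in all 3 lines was 0 by edgeR and by DESeq2, where 6.60% of tested genes did, and 1, TAGLN, at an unadjusted p under 0.05.

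The response of 7 members differed between the lines in the edgeR test of the interaction, as it did for 32.4% of all tested genes. These were TWIST1 (adjusted p = 0.000698), SNAI1 (0.000923), VIM (0.00102), TAGLN (0.00827), ZEB1 (0.0325), SNAI2 (0.0412) and CDH2 (0.0949). CDH1, FN1 and ZEB2 did not pass it, although CDH1 passed without LNA NS library 1 (0.0931) or knock-down library 1 (0.0629) of HCC38 and FN1 without LNA NS library 2 of HCC38 (0.0842).

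VIM rose 2.12-fold in MDA-MB-468 and 1.71-fold in SUM149PT. In MDA-MB-468 it went from 15 and 13.1 CPM in the LNA NS libraries to 30.0 and 29.5 CPM in the knock-down libraries, and in SUM149PT from 160 and 175 CPM to 308 and 266 CPM. In HCC38 it was at 568 and 464 CPM in the LNA NS libraries and at 532 and 556 CPM in the knock-down libraries. Knock-down and control did not overlap in the first pair of lines and did in HCC38. Log2 fold changes were 1.08 ± 0.12 in MDA-MB-468 (edgeR adjusted p = 1.72e-06), 0.78 ± 0.11 in SUM149PT (edgeR adjusted p = 5.89e-05) and 0.08 ± 0.11 in HCC38 (edgeR adjusted p = 0.653; 95% interval -0.15 to 0.30). The line with the most VIM under LNA NS was the one in which VIM did not pass. VIM-AS1, the antisense gene that overlaps VIM exons, had 85 and 144 counts in the LNA NS and knock-down pairs of MDA-MB-468, and it passed the test in no line. The strand setting of the counting was not given, so the part of reads shared with VIM was not tested.

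Against CDH1, the per-kilobase level of VIM shifted in the same lines. In MDA-MB-468 the ratio of VIM to CDH1 was 0.326 and 0.248 under LNA NS and went to 0.515 and 0.555 with knock-down, and 0.720 and 0.956 against 1.37 and 1.30 in SUM149PT. In HCC38 it was 4.67 and 3.13 under LNA NS, against 4.30 and 5.52. The ratio was higher in both knock-down libraries than in either control in MDA-MB-468 and SUM149PT, and overlapped between treatments in HCC38. Whether it passed 1 in SUM149PT depended on the length used, since with summed exon length it went from 0.378 and 0.502 to 0.718 and 0.683.

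**Figure D2:**
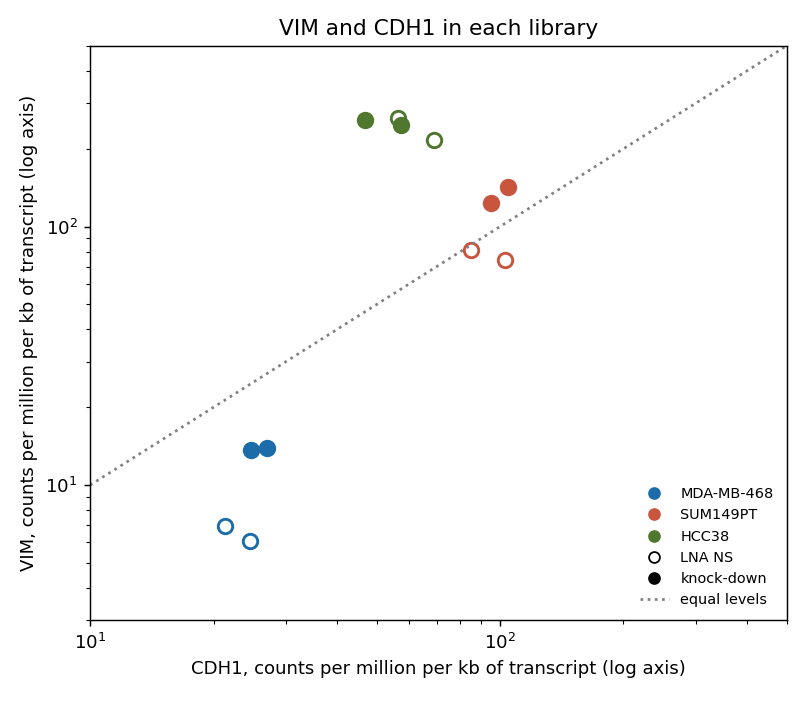
VIM (vertical axis) against CDH1 (horizontal axis) in each of the 12 libraries, in CPM per kb of canonical transcript on log axes, with open symbols for LNA NS, filled symbols for knock-down and a dotted line of equal levels. The SUM149PT libraries cross the dotted line with this length, from ratios of 0.720 and 0.956 to 1.37 and 1.30, but remain below equality with summed exon length (0.718 and 0.683 after knock-down).

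TAGLN, whose LNA NS level passed no test between lines, responded by different amounts in the lines (interaction test above). It reached 26.1 and 28.2 CPM in MDA-MB-468, 12.3 and 16.3 CPM in SUM149PT, and 17.5 and 19.7 CPM in HCC38, above all LNA NS libraries of the same line in each case. In MDA-MB-468 its log2 fold change was 1.29 ± 0.14 (edgeR adjusted p = 2.31e-06) and in HCC38 0.89 ± 0.14 (edgeR adjusted p = 0.000237). In SUM149PT it was 0.32 ± 0.14 (edgeR adjusted p = 0.103), at the edge of the threshold, with 0.12 without knock-down library 2 and 0.51 (adjusted p = 0.0276) without knock-down library 1. TAGLN shares its locus with PCSK7, a proprotein convertase gene on the opposite strand whose exons overlap it. PCSK7 fell in all 3 lines, with log2 fold changes of -1.36 (MDA-MB-468), -1.01 (SUM149PT) and -1.24 (HCC38), opposite to TAGLN. The libraries kept the strand, but the strand setting of the counting was not given in the sources used here, so the part of shared reads was not tested.

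FN1 rose in HCC38 by a narrow margin. Its HCC38 levels were 468 and 683 CPM under LNA NS and 893 and 666 CPM after knock-down, so the groups overlapped. The log2 fold change was 0.44 ± 0.18 (edgeR adjusted p = 0.0806). The call was lost with DESeq2 (adjusted p = 0.157) and robust dispersion (0.186), without LNA NS library 1 or 2 of MDA-MB-468 (0.108 each) and without LNA NS library 1 or knock-down library 1 of HCC38 (log2 fold change 0.19 in both fits), and the value was 0.73 without LNA NS library 2 of HCC38. In SUM149PT FN1 was at 2053 and 1453 CPM against 2354 and 2101 CPM (log2 fold change 0.35 ± 0.18, edgeR adjusted p = 0.159, but 0.62 and 0.0281 without LNA NS library 1), and in MDA-MB-468 at 38.1 and 38.8 CPM against 40.6 and 34.8 CPM (-0.03 ± 0.18). The interval in MDA-MB-468, from -0.42 to 0.36, held changes of the size seen in SUM149PT.

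SNAI1 rose 3.10-fold in MDA-MB-468, from 1.59 and 2.02 CPM to 4.79 and 6.43 CPM. In HCC38 it rose from 18.5 and 20.6 CPM to 28.9 and 27.5 CPM, whereas SUM149PT had 37.6 and 36.1 CPM under LNA NS and 40.1 and 43.2 CPM after knock-down. Knock-down libraries lay above the controls in all 3 lines. Log2 fold changes were 1.63 ± 0.18 in MDA-MB-468 (edgeR adjusted p = 1.75e-06), 0.53 ± 0.13 in HCC38 (edgeR adjusted p = 0.00698) and 0.17 ± 0.13 in SUM149PT (edgeR adjusted p = 0.346). After knock-down SNAI1 in MDA-MB-468 was still below its LNA NS level in the other lines.

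TWIST1 moved in opposite directions. In SUM149PT, where it was abundant, it fell from 22.1 and 23.9 CPM to 14.9 and 16.6 CPM. In HCC38 it rose from 0.66 and 0.47 CPM to 1.04 and 1.43 CPM, and in MDA-MB-468 from 1 count in each library to 10 and 8 counts. The groups did not overlap in any line. The log2 fold change was -0.55 ± 0.16 in SUM149PT (edgeR adjusted p = 0.0132) and 1.11 ± 0.25 in HCC38 (edgeR adjusted p = 0.0034). In MDA-MB-468 the ratio of counts was 7.76 with a counting interval from 1.86 to 68.9 (edgeR adjusted p = 0.00361). Without knock-down library 1 the fall in SUM149PT no longer passed (adjusted p = 0.113). Even after knock-down, TWIST1 in HCC38 and MDA-MB-468 remained below its level in every SUM149PT library.

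SNAI2 fell where TWIST1 fell. In SUM149PT it went from 50.9 and 52.7 CPM to 31.9 and 26.9 CPM, a log2 fold change of -0.81 ± 0.14 (edgeR adjusted p = 0.000465). HCC38 held 3.41 and 3.48 CPM under LNA NS and 3.86 and 2.96 CPM after knock-down, with a log2 fold change of 0.00 and a 95% interval from -0.43 to 0.43. In MDA-MB-468 each pair of libraries held 1 count, so no change was detectable at this depth. The fall was thus the largest of the downward changes that passed among the 10 genes in the 3 lines.

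ZEB1 rose in the lines that had less of it. Its counts in MDA-MB-468 were 7 and 14 in the LNA NS libraries and 43 and 39 in the knock-down libraries, which is 0.19 and 0.37 CPM against 0.99 and 0.92 CPM. In SUM149PT it went from 1.10 and 0.81 CPM to 1.69 and 1.58 CPM, and in HCC38 it was at 3.04 and 3.54 CPM against 3.88 and 2.53 CPM. Treatments overlapped in HCC38 and not in the other lines. Log2 fold changes were 1.74 ± 0.39 in MDA-MB-468 (edgeR adjusted p = 0.00179), 0.76 ± 0.31 in SUM149PT (edgeR adjusted p = 0.0771) and -0.03 ± 0.26 in HCC38 (edgeR adjusted p = 0.964). The SUM149PT call was lost with DESeq2 (adjusted p = 0.121), without LNA NS library 2 (0.339), knock-down library 1 (0.243) or knock-down library 2 (0.138) of SUM149PT, and without LNA NS library 2 of HCC38 (0.102). ZEB1-AS1, the antisense lncRNA at the ZEB1 start, fell in SUM149PT with a log2 fold change of -1.01 ± 0.19 (edgeR adjusted p = 0.000705), while ZEB1 rose there. Its exons overlap those of ZEB1, and it had 435 counts in the LNA NS pair of SUM149PT, against 66 for ZEB1. With the strand setting of the counting not given, the part of shared reads was not tested.

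ZEB2 passed the test in 0 lines by edgeR, adjusted or not, and by DESeq2. SUM149PT held 4.93 and 4.76 CPM under LNA NS and 6.34 and 5.38 CPM after knock-down (log2 fold change 0.28 ± 0.23, edgeR adjusted p = 0.397). HCC38 held 0.48 and 0.66 CPM against 0.79 and 0.70 CPM (0.39 ± 0.31, edgeR adjusted p = 0.389). Knock-down libraries lay above the controls in both lines, and MDA-MB-468 remained at 0 counts.

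CDH1 passed the test in no line, by edgeR, by edgeR at an unadjusted p under 0.05 or by DESeq2 (0 lines each). It was at 103 and 118 CPM against 130 and 119 CPM in MDA-MB-468, at 495 and 410 CPM against 503 and 457 CPM in SUM149PT, and at 272 and 332 CPM against 276 and 225 CPM in HCC38. The log2 fold changes were 0.17 (95% interval -0.10 to 0.44), 0.08 (-0.18 to 0.35) and -0.27 (-0.53 to 0.00), with edgeR adjusted p of 0.302, 0.67 and 0.136. In HCC38 it passed without LNA NS library 1 (-0.40, adjusted p = 0.0726) or knock-down library 1 (-0.44, 0.0471), and with no filter on low counts (-0.28, 0.0328). In MDA-MB-468 it passed upward with upper-quartile normalization (0.31, adjusted p = 0.0454), which moved the median of all genes there to 0.136, and with the trend by gene span removed (0.43, 0.00152). Over the 3 lines the mean was 0.00 with an interval from -0.16 to 0.15. In MDA-MB-468 the lower knock-down library of CDH1 (118.6 CPM) was barely above the higher control (118 CPM), and the interval reached down to -0.10. Whether CDH1 there was affected by the rise of SNAI1, TWIST1 and ZEB1 was not tested.

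CDH2 fell in HCC38 from 25.6 and 29.1 CPM to 22.0 and 18.3 CPM, a log2 fold change of -0.44 ± 0.14 (edgeR adjusted p = 0.0252). Treatments did not overlap there, whereas in SUM149PT they did, at 29.2 and 25.2 CPM against 29.0 and 27.3 CPM (0.05 ± 0.14, edgeR adjusted p = 0.843). MDA-MB-468 had 4 and 8 counts against 2 and 4, a ratio of 0.431 with a counting interval from 0.133 to 1.24. The fall in HCC38 was lost without LNA NS library 2 or without knock-down library 2, with adjusted p of 0.183 and 0.224.

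**Figure D3:**
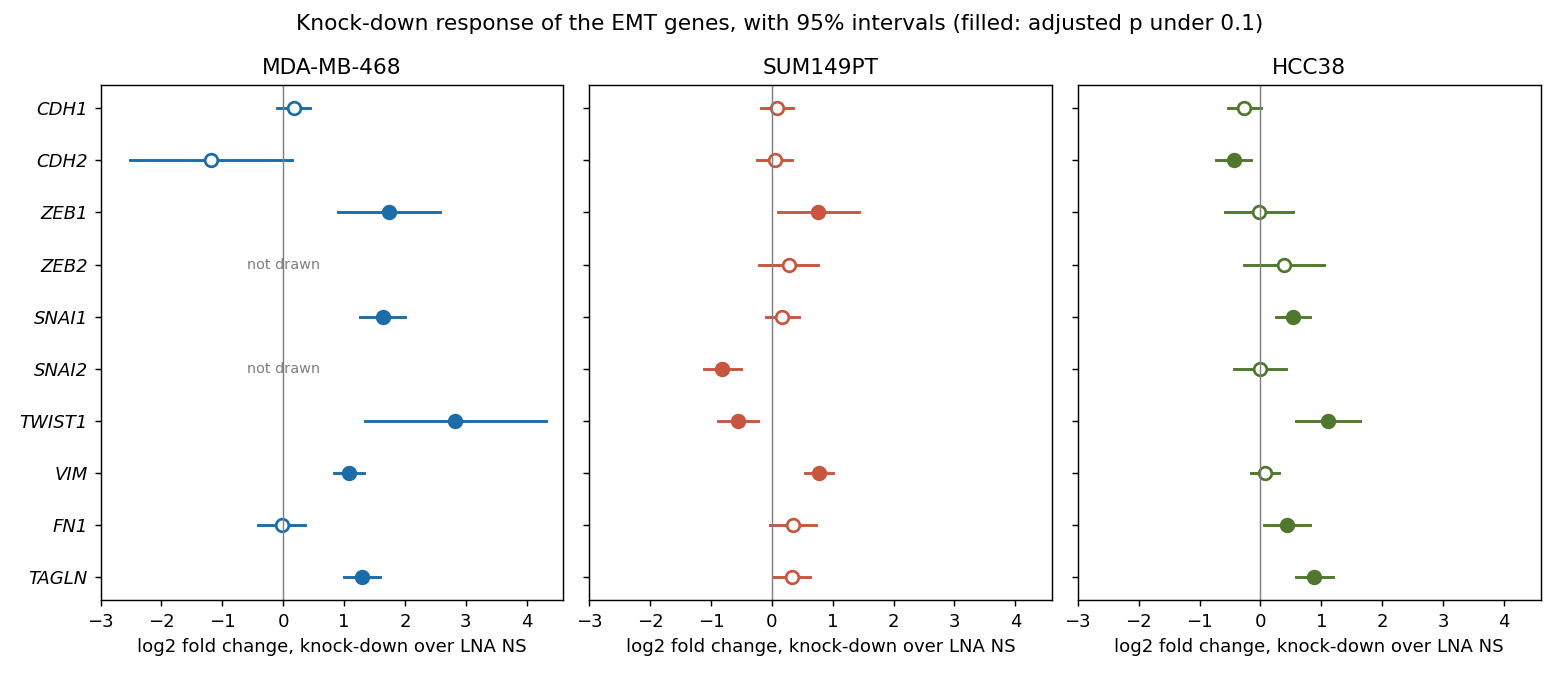
Log2 fold change of knock-down over LNA NS (horizontal axis) for each gene in each line, with 95% intervals from the edgeR fit and filled symbols where the adjusted p was under 0.1; ZEB2 and SNAI2 were at 0 to 1 counts in MDA-MB-468 and are not drawn there. The TWIST1 symbol lies at -0.55 in SUM149PT and at 1.11 in HCC38, and no CDH1 symbol is filled.

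As the equal-weight mean of the 3 lines, 6 members were higher after knock-down (background 28.4%) and CDH2 was lower (background 26.5%, and 54.8% in either direction). The mean log2 fold change was 0.83 ± 0.08 for TAGLN (edgeR adjusted p = 4.49e-07), 0.65 ± 0.06 for VIM (4.43e-07), 0.78 ± 0.08 for SNAI1 (1.38e-06), 1.13 ± 0.25 for TWIST1 (0.00144) and 0.83 ± 0.19 for ZEB1 (0.00178). FN1 had 0.25 ± 0.10 (edgeR adjusted p = 0.0548) and lost its call with DESeq2 and without LNA NS library 1 or 2 or knock-down library 1 of MDA-MB-468, LNA NS library 2 or knock-down library 1 of SUM149PT, or LNA NS library 1 or knock-down library 1 of HCC38. The CDH2 mean, -0.52 ± 0.22 (edgeR adjusted p = 0.0593), rested on the 12 and 6 counts of MDA-MB-468 and was lost without LNA NS library 2 (adjusted p = 0.417) or knock-down library 1 (0.231) of that line. For TWIST1 the mean joined changes in opposite directions. It also included the 2.82 ± 0.70 of MDA-MB-468, which rested on 18 counts after knock-down against 2 under LNA NS.

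Members of long and short genomic span moved differently when the trend of the fold changes with gene span was removed. Across all tested genes, those spanning over 100 kb had a median log2 fold change of -0.48 in MDA-MB-468, where genes of up to 10 kb had 0.13. The same medians were -0.11 and 0.03 in SUM149PT, and -0.34 and 0.14 in HCC38. CDH2, ZEB1 and ZEB2 span 245068, 211319 and 156694 bp, while SNAI1, SNAI2, VIM and TAGLN span 5907, 4143, 9353 and 8095 bp. TWIST1 is annotated with 96646 bp through an extended model, and its canonical transcript spans 2169 bp. With the span trend removed, CDH2 in HCC38 had a log2 fold change of 0.064 (edgeR adjusted p = 0.722), and did not pass. ZEB1 then had 2.42 in MDA-MB-468 (edgeR adjusted p = 3.77e-05) and 1.04 in SUM149PT (edgeR adjusted p = 0.0107). VIM, SNAI1 and TAGLN kept log2 fold changes of 0.98, 1.54 and 1.20 in MDA-MB-468.

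**Figure D4:**
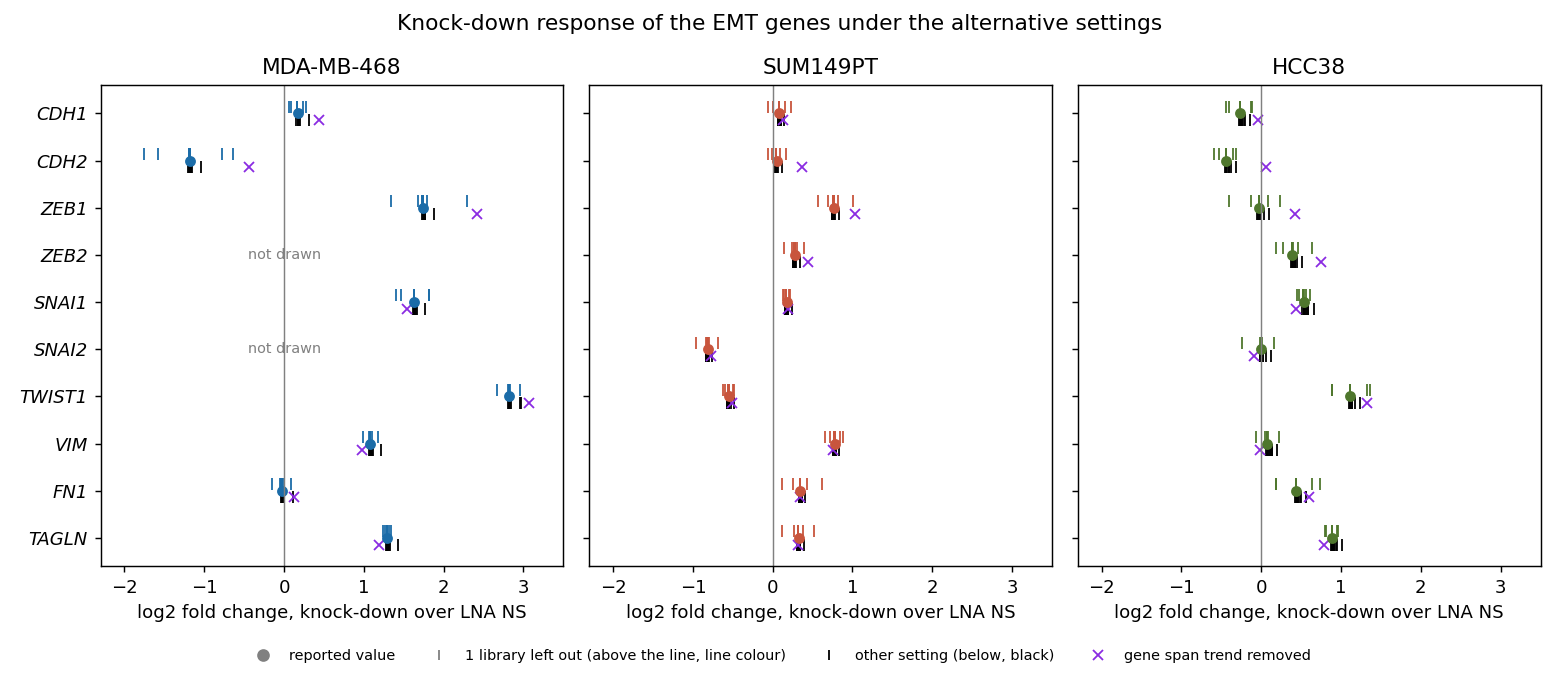
Log2 fold change of knock-down over LNA NS (horizontal axis) for each gene in each line as reported (circles), without 1 library (upper ticks), under other normalizations, filters and tools (lower ticks), and with the span trend removed (crosses). The CDH2 cross in HCC38 lies at 0.064 against -0.44 as reported, and the ticks of VIM, SNAI1 and TAGLN in MDA-MB-468 lie close to their circles.

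Related gene lists were then counted against all tested genes, of which 24.9% rose and 25.7% fell in MDA-MB-468, 20.0% and 18.0% in SUM149PT, and 15.5% and 18.4% in HCC38. The lists were not matched to these genes by expression level. Changes in genes with more counts are called more readily, and the part of this in shares above the background was not tested. Of 16 measured EMT transcription factors outside the members, 7 rose and 4 fell in MDA-MB-468, 8 rose and 3 fell in SUM149PT, and 5 rose and 4 fell in HCC38. The shares that rose (43.8%, 50.0% and 31.2%) were above the background in each line. The shares that fell were close to it in MDA-MB-468 and SUM149PT (25.0% and 18.8%) and above it in HCC38 (25.0% beside 18.4%). SOX4, a factor that acts upstream of EMT in carcinoma cells, rose in each line (log2 fold changes 1.22, 1.01 and 1.40, with the lines in the order MDA-MB-468, SUM149PT, HCC38). TWIST2, the paralog of TWIST1, fell in each line by 1.70, 0.98 and 1.21 on the log2 scale, and TCF3, a dimer partner of TWIST proteins, by 1.07, 0.71 and 0.56. HMGA2, a chromatin protein of EMT, rose in MDA-MB-468 (1.36) and fell in SUM149PT (-0.38) and HCC38 (-0.63), where the first fall was lost without any 1 SUM149PT library and both were lost with the span trend removed. ZNF217 rose in MDA-MB-468 (1.21), whereas its 0.33 in SUM149PT lost its call in 7 of 12 fits without 1 library (0.13 without LNA NS library 2 and 0.55 without LNA NS library 1 of that line) and its 0.37 in HCC38 without LNA NS library 1 (0.22) or knock-down library 1 (0.17).

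Of 18 epithelial transcription and splicing regulators, 8 rose and 4 fell in MDA-MB-468, 9 rose and 5 fell in SUM149PT, and 9 rose and 3 fell in HCC38. The shares that rose, 44.4%, 50.0% and 50.0%, were above the background in each line. The share that fell was also above it in SUM149PT (27.8% beside 18.0%), and was 22.2% in MDA-MB-468 and 16.7% in HCC38. OVOL1, a repressor that holds cells in the epithelial state, rose with log2 fold changes of 2.13, 1.20 and 0.94, while its paralog OVOL2 fell by 1.58, 0.96 and 0.62 on the log2 scale. KLF4 rose with 1.04, 1.13 and 0.89. ELF3 and GRHL3 had log2 fold changes of 1.29 and 2.46 in SUM149PT, above those in the other lines, and the differences between lines passed the interaction test (edgeR adjusted p = 1.74e-05 and 3.43e-05).

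Of 19 measured partners of the cadherins and desmosome genes, 6 rose and 9 fell in MDA-MB-468, 6 rose and 5 fell in SUM149PT, and 3 rose and 6 fell in HCC38, where the 15.8% that rose were close to the background. CTNNA1, alpha-catenin, which links E-cadherin to actin, fell by 0.39, 0.92 and 0.94 on the log2 scale, and with the span trend removed it was higher in MDA-MB-468 (0.53, edgeR adjusted p = 2.29e-05). The desmosomal cadherins DSC3 and DSC2 rose in each line, with 1.41, 1.08 and 1.01 for DSC3, whereas plakophilin PKP3 fell. The PKP3 call in HCC38 was lost without any 1 of the 4 libraries of that line. It was also lost with upper-quartile normalization, with library size alone and in the fit of the HCC38 libraries alone. Of 19 epithelial surface and polarity genes, 7 rose and 8 fell, 6 rose and 4 fell, and 5 rose and 3 fell in the same order of lines. The polarity gene PARD6B rose with 1.76, 2.33 and 1.17, PATJ and CDS1 fell in each line (PATJ in HCC38 was lost with the span trend removed), and MUC1 fell in MDA-MB-468 by 1.34 on the log2 scale.

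Of 35 mesenchymal matrix and surface genes, 10 rose and 11 fell in MDA-MB-468, 3 rose and 17 fell in SUM149PT, and 5 rose and 9 fell in HCC38. In MDA-MB-468 both shares (28.6% and 31.4%) were near the background, whereas in SUM149PT the 48.6% that fell were above it and the 8.57% that rose below it. The matrix glycoprotein TNC fell by 2.21, 1.15 and 1.32 on the log2 scale and the collagen gene COL5A1 by 1.86, 1.75 and 0.86. In MDA-MB-468 COL5A1 had 0.472 CPM under LNA NS, and its log2 fold change there was -3.26 without knock-down library 1 and -1.18 without knock-down library 2. COL5A2 fell by 0.69, 1.49 and 0.91, and in MDA-MB-468 lost its call with the span trend removed, while FN1 fell in no line. The receptor tyrosine kinase gene AXL rose in MDA-MB-468 (1.12), as VIM and SNAI1 did, and fell in SUM149PT (-0.49).

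Of 20 actin cytoskeleton genes that, like TAGLN, belong to the program of serum response factor, 6 rose and 9 fell in MDA-MB-468, 3 rose and 10 fell in SUM149PT, and 2 rose and 9 fell in HCC38. The shares that fell, 45.0%, 50.0% and 45.0%, were above the background in each line. ACTN1 fell by 1.81, 1.15 and 1.18 on the log2 scale, and CNN2, a calponin related to transgelin, by 1.07, 0.90 and 0.90, opposite to TAGLN. TPM1 fell in each line. CCN2 rose in MDA-MB-468 and SUM149PT (0.70 and 0.98), with -0.21 in HCC38 (edgeR adjusted p = 0.0905, a call lost in all 12 fits without 1 library). CCN1 rose in MDA-MB-468 (0.62) and fell in HCC38 (-0.28), and its -0.22 in SUM149PT (edgeR adjusted p = 0.0402) lost its call without LNA NS library 1 or 2 or knock-down library 2 of that line; with upper-quartile normalization neither of the falls passed. Of 11 measured intermediate filament partners of vimentin, 2 rose and 5 fell, 1 rose and 4 fell, and 3 rose and 3 fell, with SYNM higher (0.68, 0.93 and 0.53) and KRT5 lower in each line. NES fell in MDA-MB-468, and KRT14 rose in MDA-MB-468 (from 16.6 to 26.1 CPM). KRT14 also rose in HCC38, but at a very low level (from 0.479 to 1.28 CPM).

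Of 29 genes of TGF-beta and BMP signaling, which induces SNAI1 and ZEB factors in epithelial cells, 11 rose and 14 fell in MDA-MB-468, 7 rose and 12 fell in SUM149PT, and 10 rose and 13 fell in HCC38. Both shares were above the background in every line, with 48.3%, 41.4% and 44.8% that fell. ID1 and ID3, direct targets of BMP signaling, fell in each line, by 1.22, 1.69 and 1.53 on the log2 scale for ID1. TGFBI fell by 2.19, 1.08 and 0.36, and BMP4 rose in MDA-MB-468 (1.45). Of 18 fibronectin receptors and focal adhesion genes, 3 rose and 8 fell, 5 rose and 6 fell, and 3 rose and 7 fell. The integrin genes ITGB5 and ITGA3 fell in each line, as did PTK2, focal adhesion kinase, though PTK2 in HCC38 had 0.18 (edgeR adjusted p = 0.15) with the span trend removed. ITGA4 rose in SUM149PT (0.89) and fell in HCC38 (-0.86).

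**Figure D5:**
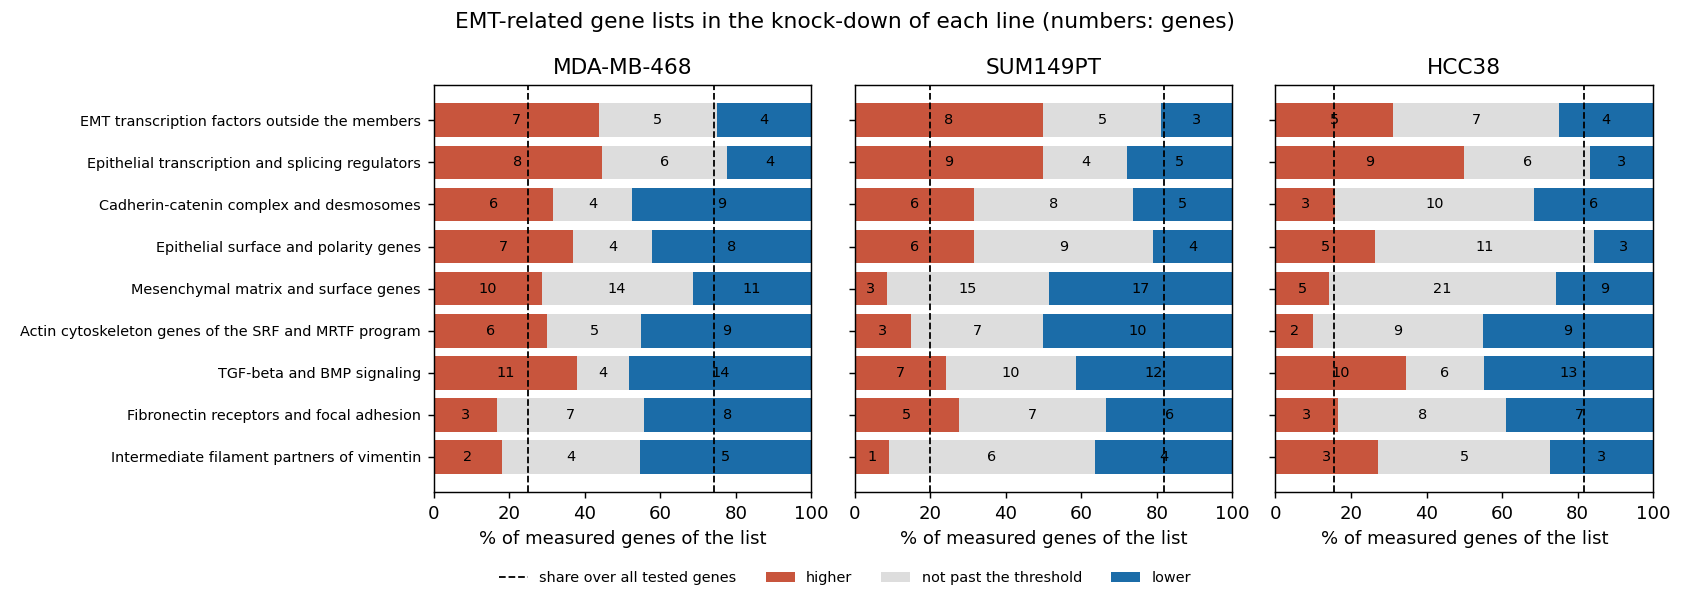
Share of the measured genes of each list (horizontal axis, percent) that were higher, lower or not past an adjusted p of 0.1 after knock-down in each line, with the number of genes printed in each bar and dashed lines at the shares over all tested genes. Of the 35 mesenchymal matrix and surface genes, 17 fell and 3 rose in SUM149PT, where 18.0% of all tested genes fell and 20.0% rose.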

How the data were processed

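The deposited files hold raw counts per Ensembl gene that the authors made from strand-specific libraries of polyadenylated RNA on GRCh37/hg19. The study's methods name STAR with HTSeq, while the submitters' processing notes list TopHat2 2.0.13 and HTSeq 0.6.0, and the aligner behind these files was not settled. Summary lines that name no gene held 40.8% to 53.7% of each library's total and were left out. Of 63677 identifiers, 55665 matched the GENCODE v44lift37 annotation, and those without a match held 0.636% of counts.

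Genes passing edgeR's filterByExpr (10 counts, 15 in all) were normalized by TMM and fitted with 1 mean per group of line and treatment over all 12 libraries (edgeR 4.0.16 in R 4.3.3, quasi-likelihood test, 6 residual degrees of freedom). All 10 members were among the 21325 genes tested. P-values were adjusted by Benjamini-Hochberg over all tested genes, and a call needed an adjusted p under 0.1, the rate the study used. Whether libraries of a group stem from separate cultures is not in the labels, and p-values then measure only the spread between libraries, which may be technical. Replicates differed beyond sampling noise in each group (chi-square per degree of freedom 17.6 to 31.6). CPM use TMM library sizes. Counting intervals are exact, at 95%, and like the floor of 3 counts cover counting error only.

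Members and lists were chosen with earlier results of these data known. All members were named, and from each list up to 3 genes with the smallest adjusted p in the mean of the lines and up to 2 in the test of the difference. The entries CD24 and PECAM1 had no match. Alternatives were other normalizations, DESeq2 1.42.0, other filters, robust dispersion, a replicate block, removal of the span trend, single lines and each library left out. Promoter sequences are from RefSeq (GRCh38.p14), another build than the counts, and were joined by symbol. Values between genes are per kb of the Ensembl canonical transcript.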

Additional observations from a re-analysis of the deposited data

Results flagged for a closer look

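The knock-down response differed between the 3 lines in the edgeR interaction test for 7 members. TWIST1 (adjusted p = 0.000698) had log2 fold changes of 2.82 (18 counts against 2 under LNA NS), -0.55 and 1.11 in MDA-MB-468, SUM149PT and HCC38. SNAI1 (0.000923) had 1.63, 0.17 and 0.53, and VIM (0.00102) had 1.08, 0.78 and 0.08. These 3 calls and that of TAGLN (0.00827; 1.29, 0.32 and 0.89) held in all 12 fits without 1 library. ZEB1 (0.0325; 1.74, 0.76 and -0.03) lost its call without LNA NS library 1 of MDA-MB-468 or knock-down library 2 of HCC38, with adjusted p of 0.129 and 0.103. SNAI2 (0.0412) had -0.81 in SUM149PT and 0.00 in HCC38 and lost its call without LNA NS library 2 (adjusted p = 0.104) or knock-down library 2 (0.141) of SUM149PT and without LNA NS library 1 (0.113) or knock-down library 1 (0.242) of HCC38. CDH2 (0.0949) lost its call in 9 of the 12 fits, with adjusted p up to 0.266, and in 7 other settings.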

How the results depend on the processing

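With at least 10 counts in every library, fewer members were tested, and 3 passed in MDA-MB-468, 2 in SUM149PT, 3 in HCC38, 4 in the mean of the lines, 3 in the difference between lines, and 4 in each comparison of LNA NS levels. With the span trend removed, 7 passed in SUM149PT, CDH2 in HCC38 had a log2 fold change of 0.064, CDH1 in the mean had 0.17 (adjusted p = 0.0148), PTK2 in HCC38 had 0.18 and CTNNA1 in MDA-MB-468 had 0.53. The cause was not tested. Without 1 library, 5 members passed in MDA-MB-468 in every fit, 3 to 5 in SUM149PT, 4 to 5 in HCC38, 5 to 7 in the mean and 5 to 7 in the difference, and 9, 9 and 8 in the LNA NS comparisons. Of 1606 recomputed member results, 1529 kept direction and side of the threshold, 51 lost a call, 24 gained one and 2 turned direction.

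Same-numbered libraries deviated together with correlations of -0.0394, 0.253 and -0.329 in MDA-MB-468, SUM149PT and HCC38 over 14833 genes, so the numbers were not taken as pairs. With the replicate block, 3 members passed in SUM149PT, since ZEB1 lost its call. Upper-quartile normalization moved the median of all genes to 0.136 in MDA-MB-468, 0.133 in HCC38 and 0.149 in the mean, and 6630 genes rose and 4520 fell in MDA-MB-468. Members under 20 counts a group (CDH2, SNAI2, TWIST1 and ZEB2 in MDA-MB-468) are limited by depth.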
